A study of Mus musculus with 12 samples.

Results

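Translation initiation and elongation factors carry out the steps from the first contact of an mRNA with the ribosome to the growth of the peptide chain. The genes described here are all those of the deposited count table whose symbol starts with Eif or Eef and a digit, without the eIF2 kinases (Eif2ak), the eIF4E-binding proteins (Eif4ebp) and names of pseudogenes. The rule gave 57 of 29486 genes, and 55 of these were among the 14969 genes with a mean of at least 10 normalised counts over the conditions. The rule goes by name, so that it also takes in the kinase Eef2k, the methyltransferase Eef2kmt and binding partners such as Eif4enif1 beside the factors proper.

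In initiation, the eIF4 proteins bind the cap of the mRNA and unwind its leader, eIF2 brings the initiator tRNA, eIF3 bridges mRNA and small subunit, and eIF1, eIF1A and eIF5 guide the choice of the start codon. In elongation, eEF1A delivers aminoacyl-tRNAs, the eEF1B subunits recharge it with GTP, eEF2 moves the ribosome by a codon and eIF5A helps at stretches that the ribosome joins slowly. B cells stimulated through LPS grow and divide, and growth of this kind depends on the supply of these factors.

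mRNAseq was performed on primary splenic B cells of C57BL/6Babr mice, with 4 libraries in each of 3 conditions. All cells received LPS, a bacterial lipopolysaccharide that activates B cells, at 10 µg/ml. In the first condition (LPS) the labels give 48 h of LPS alone. In the second (LE) the LPS-activated cells were treated for 4 h with 20 µM etoposide, an inhibitor of topoisomerase II that leaves breaks in DNA. It is not said whether the cells of the first condition stayed in culture for these further 4 h. Time in culture may therefore differ along with treatment in comparisons with LPS, and the effects of both cannot be told apart. In the third (LEKU) 10 µM KU55933, an inhibitor of the DNA damage kinase ATM, was given after 47 h of LPS, 1 h before the same etoposide treatment. No condition had KU55933 without etoposide, so that the effect of the inhibitor by itself cannot be told apart from its effect on the response to damage. The labels do not say whether the 4 libraries of a condition came from separate animals, and the Illumina indexes of a condition were used in no other, so that index and condition cannot be told apart.

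Library totals were 20739978 to 23935658 counts in LPS, 22523516 to 30575195 in LE and 20400994 to 25052093 in LEKU. The B-cell genes Cd79a, Cd79b, Ms4a1 and Pax5 were all present, between 1147 and 30239 normalised counts, whereas the T-cell genes Cd3d, Cd3e, Cd4 and Cd8a did not exceed 3.59. These 4 B-cell genes were lower in LE than in LPS, Pax5 the most (log2 -2.22), in all 5 scalings tried. Cdkn1a, a target of p53, was 397 in LPS, 13749 in LE and 10923 in LEKU, which checks the labels for etoposide. The 4 macrophage genes Adgre1, Cd68, Csf1r and Lyz2 summed to 185 counts in LPS, 322 in LE and 279 in LEKU. Of these genes, Adgre1 alone was not above LPS in LE or LEKU. The part of other cells in the results was not tested. In libraries of whole populations, fewer cells of a type and less RNA per cell cannot be told apart.

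Within a condition the 4 deposited columns held 1 fitted value per gene multiplied by a factor of the library. For Eif5a, the columns read 16326, 18113, 18841 and 16978 in LPS, 14668, 16440, 19911 and 15937 in LE, and 9970, 11243, 12044 and 12243 in LEKU. The differences among columns of a condition were the same ratio for every gene, and after scaling 1 level per condition remained. These values therefore hold no spread between replicates, and no test and no p-value could be made from them. Differences are given as log2(level + 1) with the number of members past 1.5-fold (0.585 on the log2 scale) and the share of all genes past it. The error that can be given is that of counting alone, with a median SE of 0.015, 0.016 and 0.016 over the members for LE against LPS, LEKU against LE and LEKU against LPS. It is a lower limit of the true error, since the spread between cultures is not in it.

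The starts of the genes were searched for CACGTG, the E-box that Myc with Max and Usf factors bind. It reads alike on both strands and was searched from 250 bases before to 50 bases after each RefSeq start. It stood in 12 of the 45 members in the promoter table (26.7%), in 11.6% of the 9867 genes past the filter with such a window and in 8.09% of all 27025 genes. The stretches shown are those of 6 members that the results turn on and that touch no annotated exon, written in the direction of the gene with CACGTG in capitals. The RefSeq build is GRCm38.p6, and the stretches lie at chr11:69921428-69921487 (Eif5a, minus strand, 74 bases before a start), chr3:28781133-28781192 (Eif5a2, plus strand, 117 bases before), chr16:20672646-20672705 (Eif4g1, plus strand, 54 bases before), chr11:69672580-69672639 (Eif4a1, minus strand, 189 bases before), chr10:81176561-81176620 (Eef2, plus strand, 43 bases before) and chr7:108934320-108934379 (Eif3f, plus strand, 68 bases before).
Eif5a: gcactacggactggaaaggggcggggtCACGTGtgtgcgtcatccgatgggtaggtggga
Eif5a2: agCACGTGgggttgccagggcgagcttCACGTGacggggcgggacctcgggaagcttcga
Eif4g1: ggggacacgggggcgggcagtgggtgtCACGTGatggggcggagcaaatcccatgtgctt
Eif4a1: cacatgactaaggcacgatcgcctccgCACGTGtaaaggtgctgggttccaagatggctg
Eef2: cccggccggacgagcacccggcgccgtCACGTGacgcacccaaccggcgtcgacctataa
Eif3f: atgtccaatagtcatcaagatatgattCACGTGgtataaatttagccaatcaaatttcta
The stretch of Eif5a2 holds the letters at 2 places. The other members with a match were Eef2k, Eif1b, Eif3a, Eif3k, Eif4e and Eif4h. A match is a run of letters, and no binding was measured.

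The log2 differences of the members spanned less than those of other genes in each comparison. The interquartile range of the 55 differences of LE from LPS was 0.27, against 0.83 for all 14969 genes and 0.64 for the 5446 genes with a mean of at least 1000, a level that 47 members reached. For LEKU against LE the interquartile ranges were 0.25 for the members, 0.51 for all genes and 0.40 for the genes with a mean of at least 1000, and for LEKU against LPS they were 0.38, 0.81 and 0.66. The members also spanned less than the genes of high level, which are counted with less error. This is a description of the 55 genes, for which no test was made.

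In LE against LPS, 1 member was higher by at least 1.5-fold and 4 were lower, where 22.6% of all genes were higher and 13.7% lower. In LEKU against LE, no member was higher and 1 was lower, where 6.79% of all genes were higher and 11.0% lower. In LEKU against LPS, 1 member was higher and 7 were lower, where 21.5% of all genes were higher and 13.4% lower. For genes with a mean of at least 1000, the share past 1.5-fold either way was 28.1%, 10.3% and 27.1% in the 3 comparisons, and for the 47 members of such a level the counts were 2, 0 and 7. Past 1.5-fold in all 5 scalings were 2 members in LE against LPS (Eef2k and Eef2kmt, lower), 1 in LEKU against LE (Eif4e3, lower) and 3 in LEKU against LPS (Eif4e and Eef2k, lower, and Eif1, higher). The other calls fell short of the fold in at least 1 scaling. LEKU and LE are both compared with the same LPS libraries, so that their differences from it are not independent.

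**Figure D1:**
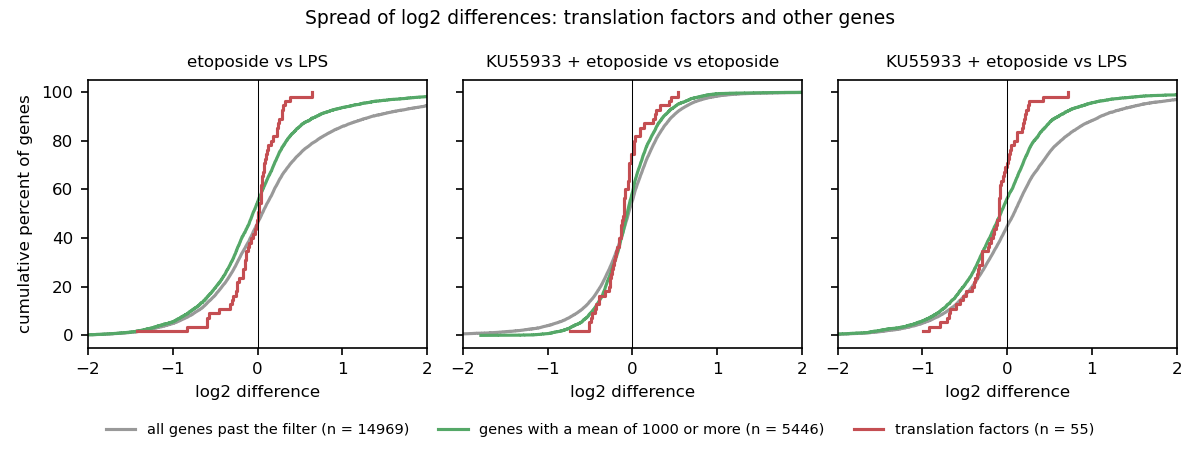
Cumulative percent of genes (y) by log2 difference of fitted normalised counts (x, cut at -2 and 2) for the 3 comparisons, for 55 translation factors (red), 5446 genes with a mean of at least 1000 (green) and all 14969 genes past the filter (grey). The red curve is the steepest in each panel, with interquartile ranges of 0.27, 0.25 and 0.38 from left to right. No error bars could be drawn, since 1 fitted value per condition was deposited.

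The members' medians lay at 0.01 for LE against LPS, -0.10 for LEKU against LE and -0.10 for LEKU against LPS, beside 0.05, -0.05 and 0.08 over all genes. Below 0 were 27, 41 and 39 of the 55 members (49.1%, 74.5% and 70.9%), beside 46.1%, 55.3% and 44.9% of all genes. Of the genes with a mean of at least 1000, 54.7%, 58.6% and 56.3% were below 0. These directions depend on how the libraries are scaled. Under 5 scalings, 33 members kept 1 direction in LE against LPS (12 higher and 21 lower), 43 in LEKU against LE (13 higher and 30 lower) and 33 in LEKU against LPS (10 higher and 23 lower). The direction changed with the scaling for 22, 11 and 21 members, which differed by at most 0.12, 0.10 and 0.19. Eef2 was at 0 under quantile scaling in both comparisons with LEKU. Relative to the scaling used here, the median of all genes moved by -0.14 (TMM) and -0.15 (quantile) in LE against LPS, and by 0.10 (column totals) and -0.11 (quantile) in LEKU against LPS. In the scaling used here, 18 members were lower at each step from LPS to LE to LEKU and 5 were higher at each step. In the same scaling 23 were highest in LE and 9 were lowest in LE. These patterns were not counted over all genes or in the other scalings, and both steps use the same LE value.

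**Figure D2:**
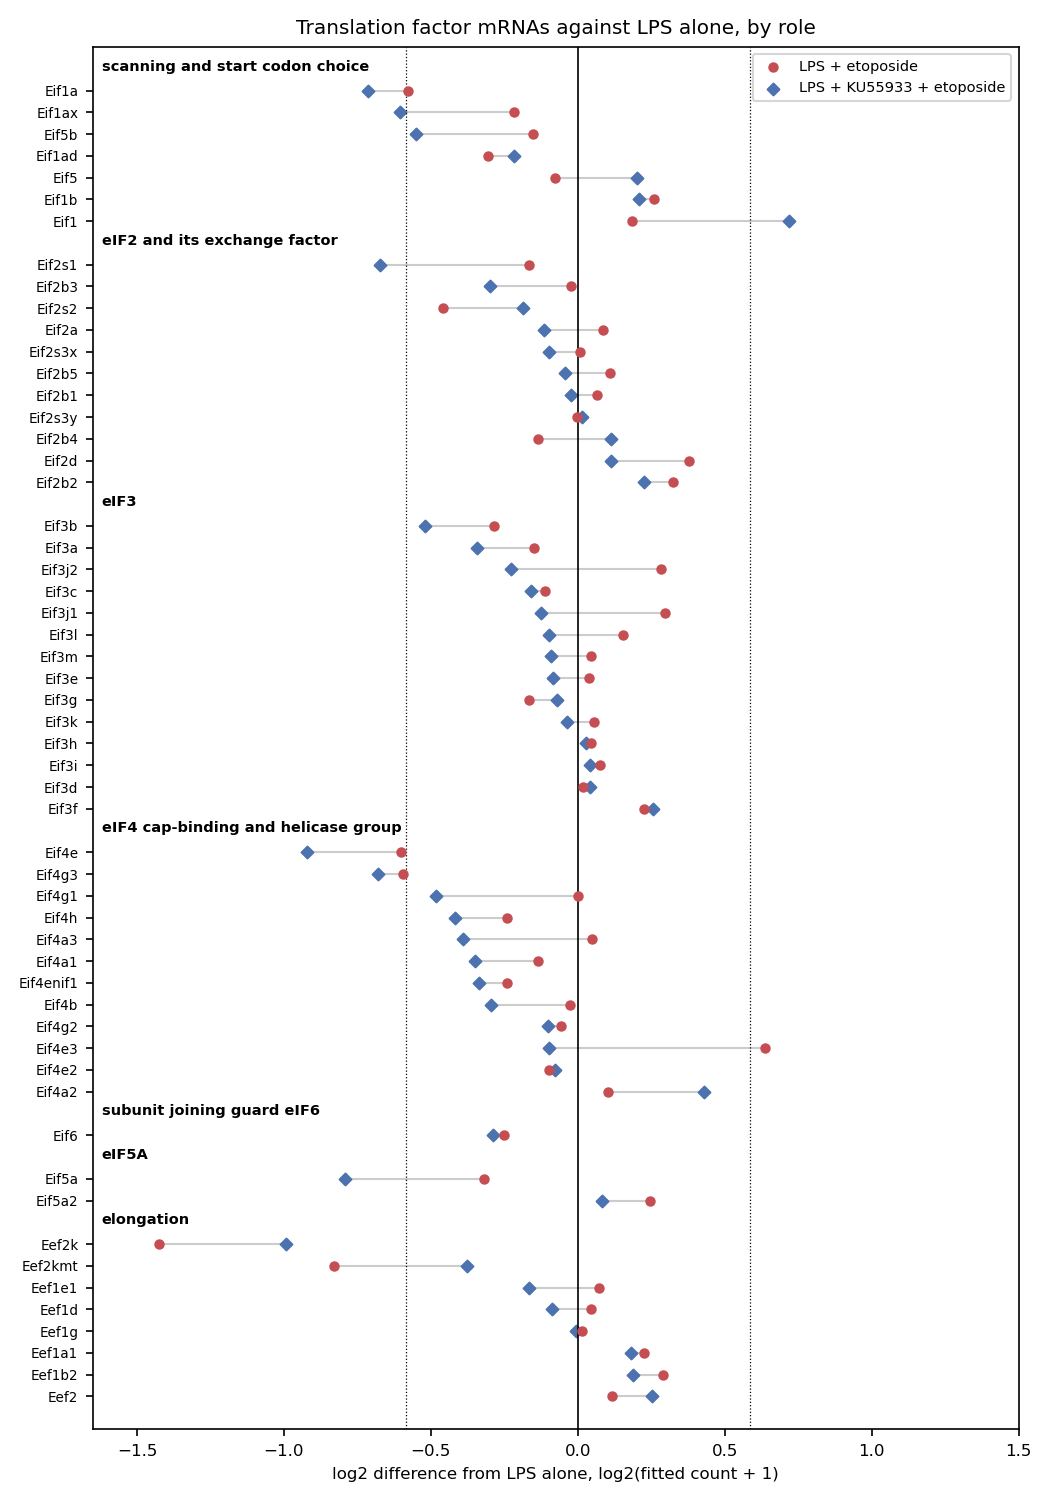
Log2 difference of each of the 55 members from LPS (x) by role (y), for LE (red circles) and LEKU (blue diamonds). Dotted lines stand at 1.5-fold either way: Eef2k, Eef2kmt, Eif4e and Eif4g3 lie past the left line in LE, and Eif1 lies past the right one in LEKU. Each point is 1 fitted value, with no error bar.

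Eif5a encodes the factor that carries hypusine, a modified lysine, and lies on chromosome 11 from 69916714 to 69921958 on the minus strand (GRCm38). Its level was 19259 in LPS, 15432 in LE and 11128 in LEKU, highest in LPS and lowest in LEKU. LE was lower than LPS (log2 -0.32, counting SE 0.008), LEKU lower than LE by 1.39-fold (log2 -0.47) and LEKU lower than LPS by 1.73-fold (log2 -0.79, counting SE 0.009). The direction was the same in each comparison under the 5 scalings, between -0.46 and -0.21, between -0.47 and -0.36, and between -0.89 and -0.57. By exonic length Eif5a was the fifth most abundant member in LPS, at 8102 counts per kb of exon. Its paralog Eif5a2 stood at 320, 379 and 338, and made up 1.63%, 2.40% and 2.95% of the pair's counts in LPS, LE and LEKU. Shares within a pair do not depend on a factor per library, but quantile scaling moves each gene by itself, and with it the share of Eif5a2 was 1.88%, 2.31% and 2.62%.

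The elongation factors held most of the counts. Eef1a1, which encodes the carrier of aminoacyl-tRNA, stood at 296785 in LPS, 346750 in LE and 336391 in LEKU, and Eef2 at 155563, 168766 and 185219. Per kb of exon in LPS, Eef1a1 came first of the 57 members with 119047, then Eef2 with 46800, Eef1g with 14694 and Eef1b2 with 9739. These 4 genes make the moving parts of elongation and the eEF1B exchange factor.

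Together the 57 members took 3.43% of all counts in LPS, 3.77% in LE and 3.85% in LEKU. The difference lay in Eef1a1 and Eef2, which went from 1.85% to 2.18% and 2.29% of all counts, or from 53.9% to 57.8% and 59.5% of the members' counts. The 55 other members held 1.58%, 1.59% and 1.56%. Eef1a1 was above LPS in LE and in LEKU by 0.22 and 0.18 on the log2 scale, in all 5 scalings. Of Eef2, the difference of 0.12 for LE ran from -0.02 to 0.16 over the scalings, and that of 0.25 for LEKU from 0 to 0.36.

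**Figure D3:**
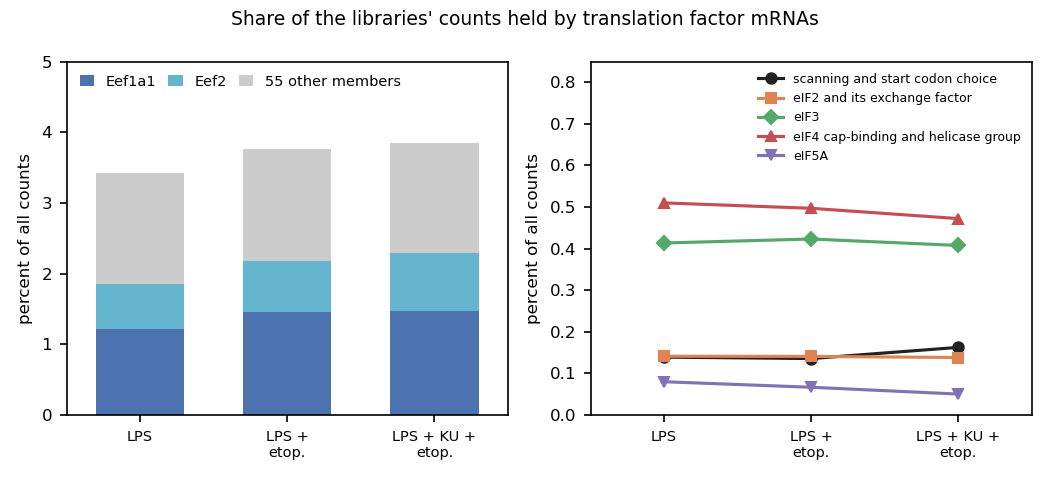
Left, percent of all counts held by Eef1a1, Eef2 and the 55 other members (stacked bars from 0) in LPS, LE and LEKU, which add up to 3.43, 3.77 and 3.85. Right, percent of all counts (y) of 5 role groups of initiation factors and eIF5A, of which the eIF4 group goes from 0.510 to 0.472 and eIF5A from 0.080 to 0.050 between LPS and LEKU. The values are shares of fitted counts and carry no replicate error.

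Among the other elongation genes, Eef1b2, an exchange subunit, was 24660, 30157 and 28066 in LPS, LE and LEKU, above LPS in both by 0.29 and 0.19 in all 5 scalings. Eef1g, a structural subunit of the same complex, was 38203, 38541 and 38078, and Eef1d 5322, 5484 and 5008. For these last genes no difference from LPS kept its direction in the 5 scalings. Eef1e1, found with the tRNA synthetases, was 904, 950 and 805. Eef1a2, the eEF1A of muscle and neurons, was below 1 count in each condition and did not pass the filter.

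Members that regulate eEF2 stood apart from their substrate. Eef2k, the kinase that phosphorylates and slows eEF2, was 545 in LPS, 202 in LE and 273 in LEKU. LE was lower than LPS by 2.69-fold (log2 -1.43, counting SE 0.058), the largest difference among the 55 members in any of the 3 comparisons, and LEKU was above LE by 0.43 and below LPS by 1.99-fold (log2 -0.99). Eef2kmt, which methylates eEF2, followed the same order with 368, 207 and 284, lower in LE by 1.78-fold (log2 -0.83, counting SE 0.062) and higher in LEKU than in LE by 0.45. Both kept their direction in the 5 scalings in each comparison. Of the exons of Eef2kmt, 17.6% overlap Alg1 on the opposite strand. How reads there were counted is not given in the sources used here.

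Of the 12 eIF4 genes past the filter, 9 were lower in LE than in LPS, 10 lower in LEKU than in LE and 11 lower in LEKU than in LPS, with medians of -0.08, -0.20 and -0.34. In all 5 scalings, 7, 8 and 8 of the 12 were lower in the same comparisons. Over all genes, 46.1%, 55.3% and 44.9% were lower in the scaling used here. Of genes with a mean of at least 1000, these shares were 54.7%, 58.6% and 56.3%. Eif4e, the cap-binding protein itself, was 3353, 2209 and 1768 in LPS, LE and LEKU. It was 1.52-fold lower in LE than in LPS (log2 -0.60, counting SE 0.020) and 1.90-fold lower in LEKU (log2 -0.92). Over the 5 scalings the first difference ran from -0.74 to -0.55 and the second from -1.02 to -0.80. Eif4e2, a cap-binding homologue that does not recruit eIF4G, was 2308, 2158 and 2187. Its share of the counts of Eif4e and Eif4e2 was 40.8% in LPS, 49.4% in LE and 55.3% in LEKU. Per kb of all annotated exons its level was 0.55, 0.78 and 0.99 times that of Eif4e, so that by this measure the levels of both were close in LEKU.

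Eif4e3, the third homologue, went the other way in LE. Its level was 421 in LPS, 655 in LE and 394 in LEKU, which puts it 0.64 above LPS in LE (counting SE 0.046), the single member higher by at least 1.5-fold there, and below LE in LEKU (log2 -0.73), the single member past 1.5-fold in that comparison. LE was the high condition, and the difference of -0.10 for LEKU against LPS changed sign with the scaling. Eif4e1b was below 1 count in each condition.

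The helicases of the cap complex differed in opposite directions between LEKU and LPS. Eif4a1 was 18406, 16755 and 14424, and Eif4a2, a close homologue that also binds eIF4G, was 13142, 14096 and 17693. Eif4a2 therefore went from 41.7% of the pair's counts in LPS to 45.7% in LE and 55.1% in LEKU (40.8%, 46.6% and 54.7% under quantile scaling), and the ratio of its counts per kb of exon to those of Eif4a1 was 0.58, 0.68 and 1.00. The ratio of the pair differed by 0.24 on the log2 scale between LE and LPS and by 0.54 between LEKU and LE, with counting SEs of 0.012 and 0.011. Of the 100-base windows of Eif4a1, 22.6% occur in transcripts of other genes, mainly the pseudogene row Eif4a-ps4, which had 2595, 2383 and 2037 counts in the same order. The windows of Eif4a2 were not among those shared at 5% or more. Eif4a3, which acts in the exon junction complex, was 3107, 3214 and 2370.

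Of the scaffolds, Eif4g1 was 17549 in LPS, 17546 in LE and 12559 in LEKU, lower in LEKU than in LE by 1.40-fold (log2 -0.48) in all 5 scalings. Eif4g3 was 5422, 3590 and 3380, lower in LE than in LPS by 1.51-fold (log2 -0.59, counting SE 0.015) with little between LE and LEKU (-0.09, of which the sign changed with the scaling). Eif4g2, the scaffold without a binding site for eIF4E, was the most counted gene of the group with 31201, 29970 and 29090. The 3 scaffolds thus differed in where their level went down, Eif4g3 between LPS and LE and Eif4g1 between LE and LEKU. Eif4b and Eif4h, which help the helicase, were 17189, 16871 and 14007, and 8920, 7539 and 6678.

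**Figure D4:**
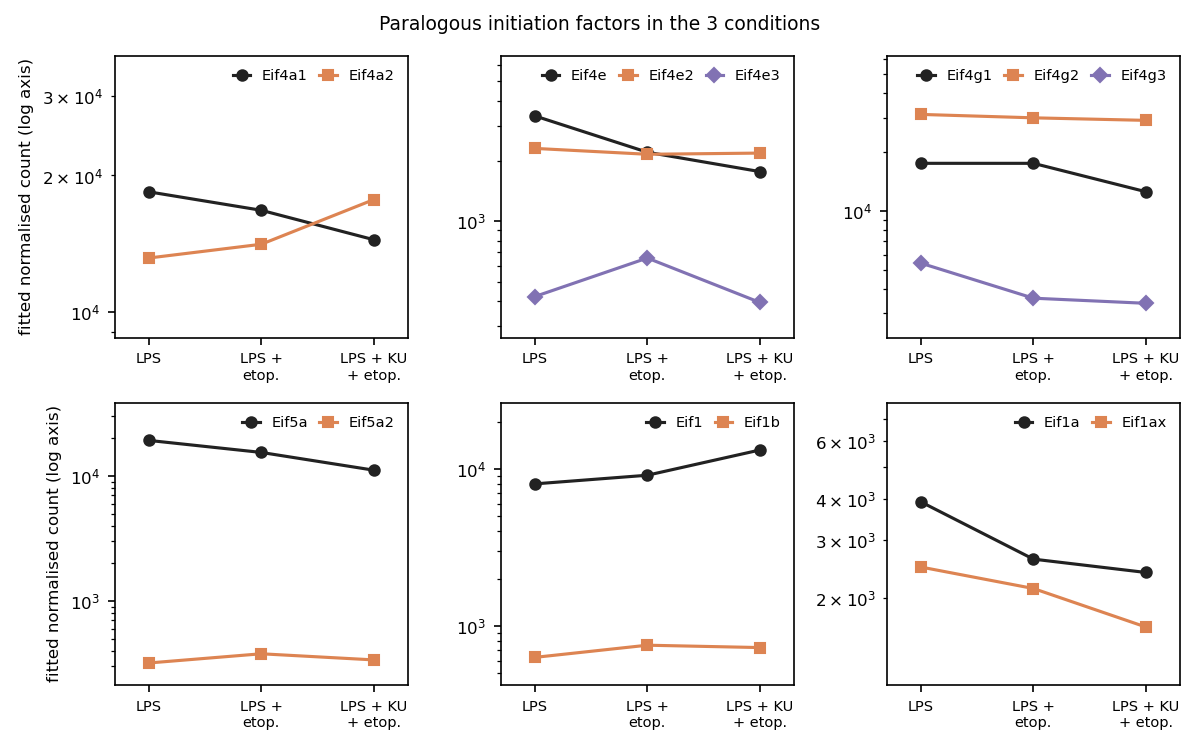
Fitted normalised counts (y, log axis with its own range in each panel) of 6 groups of paralogs in LPS, LE and LEKU (x). Counts are not divided by gene length, so that lines are read within a gene: Eif4a1 and Eif4a2 run in opposite directions, Eif4e goes from 3353 to 1768 while Eif4e2 lies between 2158 and 2308, and Eif5a goes down from 19259 to 11128 while Eif5a2 lies between 320 and 379. Points are single fitted values with no error bar.

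Genes of scanning and start codon choice differed in direction. Eif1, which guards against a wrong start codon, was 8032 in LPS, 9120 in LE and 13213 in LEKU. It was above LPS in LE by 0.18 and in LEKU by 0.72 (counting SE 0.010), the single member higher by at least 1.5-fold in LEKU against LPS, and LEKU was above LE by 0.53, in all 5 scalings. Its paralog Eif1b was 630, 753 and 727, and went from 7.27% to 5.22% of the counts of both between LPS and LEKU. Eif5, the partner that makes eIF2 spend its GTP, was 12468, 11826 and 14328. In LEKU it was above LE by 0.28 and above LPS by 0.20.

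Eif1a, Eif1ax, Eif5b and Eif1ad were lower in LEKU than in LPS. Eif1a was 3912, 2620 and 2386, lower than LPS in LE (log2 -0.58, just short of 1.5-fold) and in LEKU (log2 -0.71). Eif1ax was 2479, 2133 and 1629, lower in LEKU than in LPS by 1.52-fold (log2 -0.61). Eif5b, which joins the subunits, was 4849, 4360 and 3311, and Eif1ad, which shares a domain with eIF1A, was 1686, 1363 and 1450. For each of these 4 genes the difference of LEKU from LPS was below 0 in all 5 scalings. Of Eif1ax these differences ran from -0.70 to -0.50.

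Of the 11 genes of eIF2, its exchange factor and related proteins, 1 was past 1.5-fold, in LEKU against LPS only. In that comparison 34.9% of all genes were past it, and 27.1% of genes with a mean of at least 1000. Eif2s1, which encodes the subunit that stress kinases phosphorylate, was 4329 in LPS, 3853 in LE and 2712 in LEKU, lower in LEKU than in LPS and past 1.5-fold (log2 -0.67, counting SE 0.018) and lower than in LE (log2 -0.51). Eif2s2, the beta subunit, was lowest in LE, with 7071, 5140 and 6210. Eif2s3x, the gamma subunit, was 8575, 8616 and 8013, and its Y-linked copy Eif2s3y was 2126, 2120 and 2147, or 19.9%, 19.8% and 21.1% of the pair, an order that quantile scaling changed (21.7%, 19.1% and 20.0%). The 5 genes of the exchange factor eIF2B, Eif2b1 to Eif2b5, lay between -0.30 and 0.32 in LE and LEKU against LPS, with Eif2b2 above LPS in both (0.32 and 0.22) and Eif2b3 the lowest of the 5 in LEKU (-0.30). Eif2d, which can bring tRNA without eIF2, was 1601, 2083 and 1732, above LPS by 0.38 in LE. Eif2a was 3925, 4162 and 3625, lower in LEKU than in LE in all 5 scalings, and the sign of its differences from LPS changed with the scaling.

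In LE against LPS, LEKU against LE and LEKU against LPS, 36.3%, 17.8% and 34.9% of all genes were past 1.5-fold. Of genes with a mean of at least 1000, 28.1%, 10.3% and 27.1% were past it. Below 0 were 46.1%, 55.3% and 44.9% of all genes. None of the 14 eIF3 genes reached 1.5-fold in any of the 3 comparisons. They lay between -0.29 and 0.30 for LE against LPS, between -0.51 and 0.09 for LEKU against LE and between -0.52 and 0.25 for LEKU against LPS, with medians of 0.04, -0.11 and -0.09. In all 5 scalings, 4 were higher and 3 lower in LE against LPS, 3 were higher and 7 lower in LEKU against LE, and 1 was higher and 4 were lower in LEKU against LPS. The most counted were Eif3a with 21120, 19044 and 16637 and Eif3c with 13363, 12374 and 11966, followed by Eif3f with 8681, 10155 and 10357. Eif3e was 9047, 9289 and 8535. Eif3b, a core subunit with Eif3a and Eif3c, was the lowest of the group in LEKU against LPS, with 9070, 7438 and 6332. Eif3f was above LPS in LE and LEKU in all 5 scalings.

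The loosely bound subunit eIF3j has 2 genes in the mouse, and both were highest in LE, Eif3j1 with 2387, 2934 and 2187 and Eif3j2 with 946, 1152 and 807. Of the 100-base windows of Eif3j2, 84.0% are shared with transcripts of other genes, mainly Eif3j1. How reads from shared windows were counted is not given, so that these 2 values may not be independent. Eif6, which keeps the large subunit from joining too early, was 2109, 1773 and 1725, below LPS in LE (log2 -0.25) and in LEKU (log2 -0.29) in all 5 scalings.

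Many factor mRNAs begin with a terminal oligopyrimidine (TOP) run, which ties their translation to mTOR and the binding protein Larp1. Of 9 members known as TOP mRNAs (Eef1a1, Eef1b2, Eef1d, Eef1g, Eef2, Eif3e, Eif3f, Eif3h and Eif4b), none was past 1.5-fold in any comparison. Their median differences were 0.04, -0.04 and 0.03 for LE against LPS, LEKU against LE and LEKU against LPS, and 1, 7 and 4 of 9 lay below 0. The 46 other members had medians of -0.04, -0.12 and -0.14, with 26, 34 and 35 below 0 and 5, 1 and 8 past 1.5-fold. Over all genes, 46.1%, 55.3% and 44.9% lay below 0, and 36.3%, 17.8% and 34.9% were past 1.5-fold. Of genes with a mean of at least 1000, 54.7%, 58.6% and 56.3% lay below 0, and 28.1%, 10.3% and 27.1% were past 1.5-fold. The TOP members also had more counts, not divided by length, with a median of 16022 against 3149. The 12 members with CACGTG had medians of -0.07, -0.17 and -0.35, with 7, 9 and 8 below 0. The 32 without it that passed the filter had 0.00, -0.10 and -0.10, with 16, 21 and 22 below 0. In LEKU against LPS the first ran from -0.99 to 0.25 and the second from -0.68 to 0.72. Genes outside the members were not divided by CACGTG.

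Regulators of these factors were kept apart from the members. Of 18 kinases, inhibitors and related genes, 1 was higher and 1 lower by at least 1.5-fold in LE against LPS. In LEKU against LPS, 2 were higher and 1 was lower. Of all genes, 22.6% were higher and 13.7% lower in the first comparison, and 21.5% and 13.4% in the second. Ppp1r15a, the inducible phosphatase subunit that reverses phosphorylation of eIF2 alpha, was 1232 in LPS, 3566 in LE and 8064 in LEKU, above LPS by 1.53 and 2.71 on the log2 scale. Larp1 was 10258, 5102 and 5348, below LPS in LE (log2 -1.01). Eif4ebp2, which holds eIF4E away from eIF4G, was 2958, 3901 and 2748, highest in LE. The 4 eIF2 kinases Eif2ak1, Eif2ak2, Eif2ak3 and Eif2ak4 stayed between -0.21 and 0.02 of LPS in LE. In LEKU they lay between -0.25 (Eif2ak4) and 0.20 (Eif2ak3) of LPS, and Eif2ak3 was above LE by 0.38.

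In the scaling used here, 46.1% of all genes were lower in LE than in LPS. Of 8 poly(A)-binding proteins and scanning helpers, 5 were lower in LE than in LPS in all 5 scalings. Mcts2, at 93.5, 55.7 and 55.8, was the one past 1.5-fold in LE against LPS, where 13.7% of all genes were lower by that fold. In LEKU against LPS, Mcts2 (log2 -0.73) and Mcts1 (log2 -0.60) were lower past it, as were 13.4% of all genes. The most abundant of the 8, Pabpc1, was 45582, 54635 and 48599. Of 4 termination and recycling genes, 3 passed the filter, and all 3 were lower in LEKU than in LPS in the 5 scalings. In 1 of them, LE against LPS changed sign with the scaling. Over all genes, 44.9% were lower in LEKU than in LPS in the scaling used here. Gspt1, which encodes the release factor eRF3, was 4440, 3070 and 2556, lower in LEKU than in LPS (log2 -0.80). Etf1 was 8093, 6498 and 6350, and Abce1, which splits ribosomes, was 8289, 7160 and 5894.

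Transcripts of some members share sequence with those of other genes, and how reads from there were counted was not tested. Of the 57 members, 34 had no 100-base window of their transcripts in common with a transcript of another gene and 10 had at least 5% in common, led by Eif3j2, Eif2s3x (33.7%), Eif3j1 (33.4%), Eef1g (32.4%) and Eif4a1. Exons of 23 members overlapped those of another gene, on the opposite strand for 14 of them, and whether the counting used strand is not given in the sources used here. The largest such overlap was that of Eif3d, with 43.3% of its exons covered by an antisense gene.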

How the data were processed

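The authors trimmed reads with cutadapt 1.2.1 through Trim Galore, mapped them to GRCm38 (mm10) with TopHat2 2.0.12, counted them per gene with HTSeq and fitted DESeq2 1.6.3, as the submitters' processing notes and the study's methods give it. The deposited table holds a normalised count signal for 12 libraries, which is 1 fitted value per condition and gene multiplied by a factor of the library (deviation from a constant ratio at most 1.4e-14 on the log2 scale). Whether the fitted values were moderated toward no difference is not given in the sources used here. The 3 deposited comparison tables hold the authors' mean, log2 fold change, standard error, Wald statistic, p-value and adjusted p-value, and were not used.

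Columns were scaled by the median of ratios over 10892 genes with a mean of at least 100, and averaged per condition. Genes with a mean of at least 10 over the 3 conditions were kept, and differences taken on log2(level + 1), which understates the differences of low genes. No test was made. Alternatives were TMM, upper quartile, column totals and quantile scaling, minimum means of 0, 50 and 1000, pseudocounts of 0.5 and 5, a smaller fold (0.32 on the log2 scale) and a larger one (2-fold), and each library left out. Counting SEs rest on fitted counts summed over the 4 libraries. Exonic lengths and overlaps came from GENCODE M21, promoters from RefSeq. A length is that of all annotated exons of a gene joined, and not that of the transcripts present in these cells. Values per kb and ranks by them depend on this choice. The functions were tested on simulated data. Members, roles and lists (initiation regulators, poly(A) and scanning helpers, termination, hypusine enzymes, mitochondrial factors, selenocysteine elongation, TOP mRNAs, markers of B, T and NK cells, macrophages and red blood cells, p53 targets) were chosen with earlier results of these data known. The result for 1 gene of these lists is not reported here. Full values are given for Eif5a, for members past 1.5-fold, for the 3 most counted members of each role and for paralogs. Analyses ran in Python 3.11.15 with numpy 2.4.6, pandas 2.3.3, scipy 1.17.1 and matplotlib 3.10.9.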

Additional observations from a re-analysis of the deposited data

How the results depend on the processing

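No paired analysis was possible because the 4 columns of a condition hold 1 fitted value, and for the same reason leaving out a library removes a copy of it. Leaving out each library in turn gave median differences of the members from 0.0032 to 0.010 (LE against LPS), -0.11 to -0.099 (LEKU against LE) and -0.10 to -0.097 (LEKU against LPS), and the same counts past 1.5-fold, which says nothing about the spread between cultures. Under the other settings, 80 values stayed within the limit set for them (1.5 times for a count), 34 moved past it and 3 changed sign. Of the counts within it, 46 were identical and 5 were not: with TMM 6 members were lower in LE against LPS and 9 in LEKU against LPS, with upper quartile and with a minimum mean of 1000 6 were lower in LEKU against LPS, and at the lower fold 6 were lower in LE against LPS. With TMM the medians were -0.13, -0.061 and -0.195 in the same order, and 0 members were higher by 1.5-fold in LE against LPS. With column totals they were 0.053, -0.046 and 0.0048, with 2 members lower in LE against LPS, 1 higher in LEKU against LE and 4 lower in LEKU against LPS. With quantile scaling they were 0.063, -0.047 and -0.016, with 0 higher and 2 lower in LE against LPS and 2 higher and 2 lower in LEKU against LPS. Of the medians, the sign changed for LE against LPS with TMM and for LEKU against LPS with column totals. A minimum mean of 1000 gave a median of -0.00021 for LE against LPS, 0 members higher and 2 lower there, 0 lower in LEKU against LE, and shares of counts of 3.41%, 3.74% and 3.83% in LPS, LE and LEKU. With the fold set lower, at 0.32 on the log2 scale, 3 members were higher in LE against LPS, 4 higher and 9 lower in LEKU against LE, and 2 higher and 16 lower in LEKU against LPS. At 2-fold, 1 was lower in LE against LPS and 0 were higher, 0 lower in LEKU against LE, and 0 either way in LEKU against LPS. Without Eef1a1 and Eef2, chosen after seeing the data, the shares were 1.58%, 1.59% and 1.56%. The cause of these moves was not tested, beyond the smaller number of genes under a stricter filter or fold. Counting error had a median SE of 0.015 to 0.016 over the members and was larger in those of low level, such as Eef2k (0.058 for LE against LPS).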

Other observations

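Translation factors of mitochondria, which are encoded in the nucleus and act on the organelle's own mRNAs, were described apart from the cytosolic ones. Of 9 such genes, 7 were lower in LE than in LPS in all 5 scalings, with a median of -0.25 over the 9. Over all genes, 46.1% were lower in the scaling used here. Past 1.5-fold in LE against LPS was 1 of the 9, Mtif3, with 264, 455 and 394 counts in LPS, LE and LEKU (0.78 above LPS in LE). Of all genes, 22.6% were higher and 13.7% lower by that fold. In LEKU against LE, 5 of the 9 were higher and 4 lower in all 5 scalings, with a median of 0.14. Tufm, the mitochondrial counterpart of Eef1a1, was 3074, 2834 and 2156. Gfm1, the counterpart of Eef2, was 1848, 1548 and 1408, and both are among the 4 that were lower in LEKU than in LE. Eefsec, the elongation factor for selenocysteine, was 805, 538 and 466, lower than LPS in LE (log2 -0.58) and in LEKU (log2 -0.79).

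The enzymes Dhps and Dohh make hypusine on eIF5A. Dhps was 574, 544 and 586, and Dohh was 637, 778 and 830, above LPS by 0.29 in LE. Of 6 rows with pseudogene names left out by the rule, Eif4a-ps4 was the highest with 2595 counts in LPS, and the others had fewer than 31 counts in each condition. Eif5al3-ps had 18.0, 16.9 and 11.8 counts.

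Both p53 targets checked were above LPS in LE, Mdm2 with 2533, 17037 and 9630 counts. The haemoglobin genes Hbb-bs and Hbb-bt, markers of red blood cells, were 58.7 and 142 in LPS and 28.9 and 70.4 in LEKU. The macrophage gene Cd68 was 101, 216 and 177 in LPS, LE and LEKU, and Lyz2 was 33.1, 49.1 and 51.9. Adgre1, at a level of 47.2 in LPS, was not higher than LPS in LE (log2 -0.03, of which the sign changed with the scaling). In LEKU it was lower than LPS (log2 -0.24). Csf1r, at 4.03, 10.6 and 9.84, did not pass the filter. Klrb1c, a marker of NK cells, was at most 1.08. Whether these cells had a part in the members' values was not tested.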
